A study of Mus musculus with 2 samples.

Results

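The 39 genes described here encode proteins of the lysosome. Of these, 18 are hydrolases or other proteins of its lumen, 11 sit in its membrane, and 10 are subunits or accessory proteins of the Atp6 proton pump. They were chosen by name and not by a cut on measured level, but with earlier results of these data known. All 39 were found among the 32285 gene rows of the library. The library held CD64+ cells sorted by flow cytometry from the thymus of adult C57BL/6 mice, and no treatment or altered gene is named for them. It was made in 2021 with a droplet-based kit that counts transcripts from their 3′ ends. The number of animals behind it is not given in the sources used here, and the library of 2024 was not analysed here. With 1 library there is no replicate, so no test was made and every 95% interval covers counting error only.

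The lysosome is the acidic compartment in which cells break down what they engulf. The Atp6 complex, also called V-ATPase, spends ATP to bring protons into it, the hydrolases work in that acid, and heavily glycosylated membrane proteins line it and carry its products out. Thymic macrophages are known for clearing the many thymocytes that die during selection.

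The library held 3214 cell barcodes and 8534578 unique molecular identifiers (UMIs, 1 per captured transcript), and 3185 cells were kept. Cells were clustered without the 39 genes and without the other lysosome genes named further on, so that no level of these genes shaped a cluster. Clusters were named from markers that include none of the 39, and 7 classes of at least 50 cells, with 3043 cells in all, were compared. Macrophage-like cells were 380 of the 3185 (11.9%, 95% interval 10.8% to 13.1%), beside 468 monocyte-like, 817 conventional dendritic-like (DC-like), 486 neutrophil-like, 384 T lineage-like, 297 NK and ILC-like and 211 B lineage-like cells. *Fcgr1*, which encodes CD64, the antigen of the sort, stood at 142 CPM (the gene's share of all UMIs of the class, on the scale where 10000 CPM is 1%) in macrophage-like cells, 68.4 CPM in monocyte-like cells and between 4.37 and 11.0 CPM in the other 5 classes. Median depth ran from 975 UMIs per cell in NK and ILC-like cells to 3318 in DC-like cells, and 2466 in macrophage-like cells. Levels below are UMIs summed over the cells of a class, in CPM of that class. The monocyte-like class was 1 cluster, with *Ace*, *Apoc2* and *Treml4* among its leading genes, so its levels describe that cluster alone. A few cells outside the neutrophil-like class carried many transcripts of neutrophil markers: over 1% of the UMIs came from the 10 markers in 5 macrophage-like, 7 monocyte-like, 4 DC-like, 3 T lineage-like and 1 B lineage-like cells. Without all such cells the counts of members and the directions given below for macrophage-like cells against the other named classes did not change.

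All 39 genes together took 20892 CPM in macrophage-like cells (20627 to 21159), which was below the 27409 CPM of monocyte-like cells (27085 to 27737). Neutrophil-like cells followed at 12171 CPM, DC-like cells at 6693 CPM, and the 3 lymphoid classes lay between 3025 and 3981 CPM. This order turned on 1 gene. *Lyz2*, the lysozyme of myeloid cells, made up 38.4% of the sum in macrophage-like cells, 64.5% in monocyte-like cells and 66.2% in neutrophil-like cells. Without *Lyz2* the other 38 genes took 12876 CPM in macrophage-like cells (12668 to 13086), 9727 CPM in monocyte-like cells, 5543 CPM in DC-like cells and 4119 CPM in neutrophil-like cells. *Lyz2* has a close copy, *Lyz1*, and how reads were divided between them is not given in the sources used here.

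The order without *Lyz2* was the same cell by cell at equal depth. To compare cells at 1 depth, 2000 UMIs were drawn at random from every cell that had as many, which kept 260 of 380 macrophage-like, 231 monocyte-like, 728 DC-like and 197 neutrophil-like cells, 113 T lineage-like and 82 B lineage-like cells, and 8 NK and ILC-like cells. Among every 2000 UMIs a macrophage-like cell had a median of 23.5 UMIs of the 38 genes (quartiles 18 and 30.2), a monocyte-like cell 18, a DC-like cell 10 and a neutrophil-like cell 7. The medians were 6 in T lineage-like and 5 in B lineage-like cells. Every thinned macrophage-like cell carried at least 8 such UMIs, and the highest carried 59. The quartile ranges of macrophage-like and monocyte-like cells overlapped, since the upper quartile of the latter was 23.

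**Figure D1:**
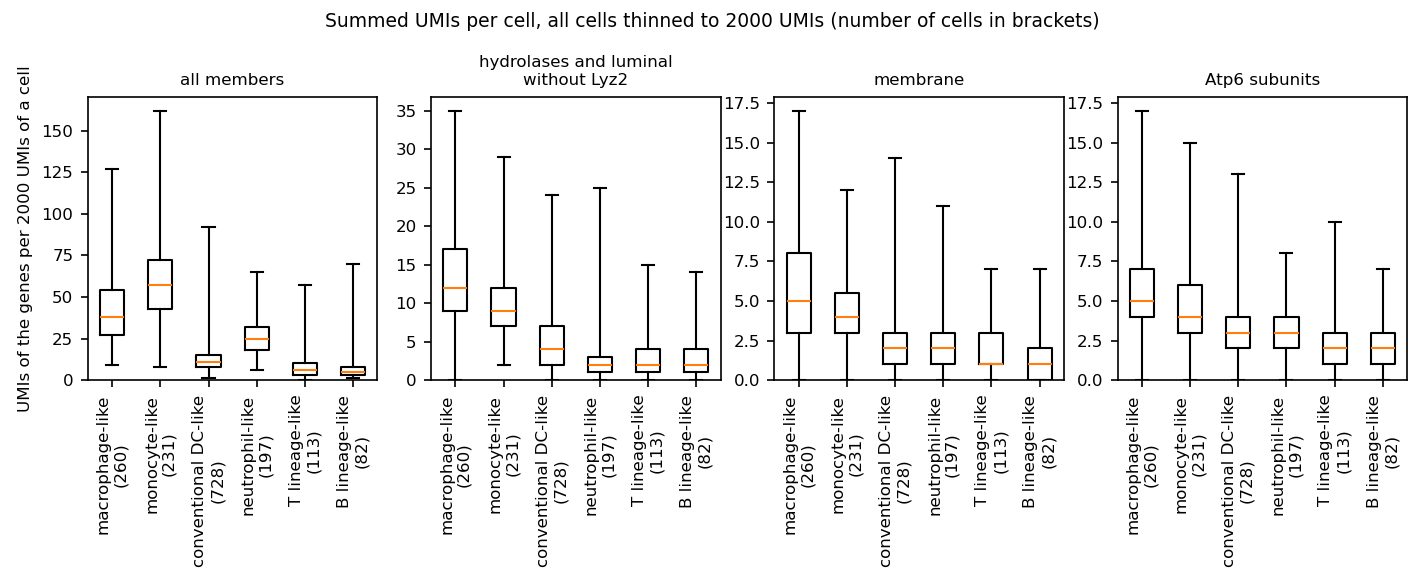
Boxes show the UMIs of all 39 genes, of the hydrolases and luminal proteins without Lyz2, of the membrane proteins and of the Atp6 subunits per 2000 UMIs of a cell (y axes), by cell class (x axes, number of thinned cells in brackets). The box spans the quartiles, the line is the median and the whiskers reach the lowest and highest cell; NK and ILC-like cells are left out because 8 reached 2000 UMIs. With Lyz2 the monocyte-like median of 57 lies above the macrophage-like 38, and in the other panels the macrophage-like median is the highest.

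Against the 6 other named classes summed, 22 of the 38 members with at least 15 UMIs were higher in macrophage-like cells by a log2 ratio of 1 or more, against 4.94% of all 10981 genes with as many UMIs. The ratio was taken after adding 10 CPM to both sides. No member was lower by as much, against 2.74% of all genes. The members' median log2 ratio was 1.09, against 0.05 for all genes. All 38 members lay above 0, as did 55.5% of all genes. However, *Atp6v0e*, at 0.04, fell to -0.18 with median-of-ratios scaling between classes. It fell to -0.01 with ribosomal protein and mitochondrial genes left out of the totals. Median-of-ratios scaling lowered the median of all genes by 0.13, and 17 members then passed 1, against 3.63% of all genes. *Gpnmb*, a glycoprotein of late endosomes and lysosomes, had 11 UMIs in macrophage-like cells and 14 in all, and was the 1 member under 15 UMIs.

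**Figure D2:**
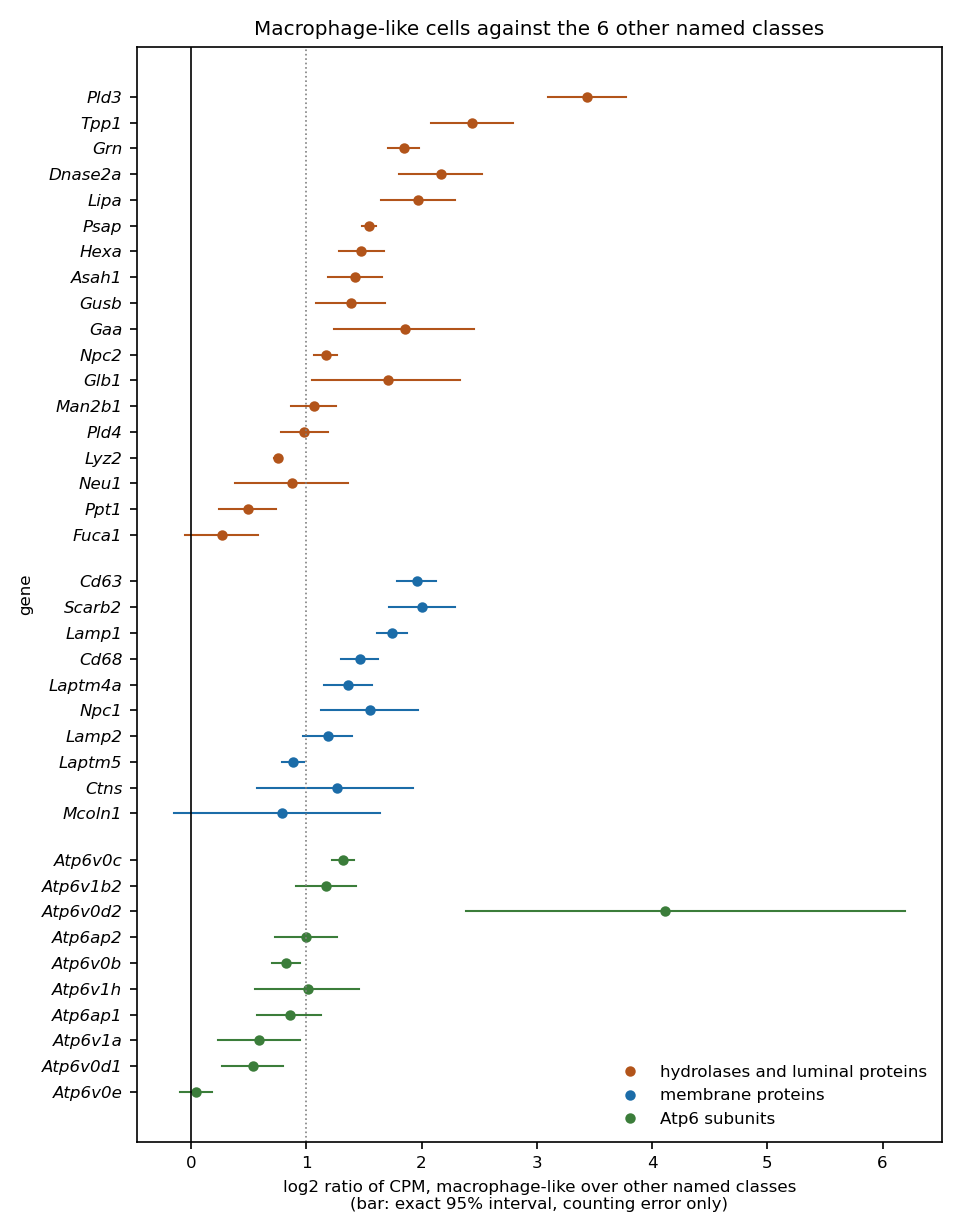
Each point is the log2 ratio of CPM in macrophage-like cells over the 6 other named classes summed (x axis, nothing added), with its exact 95% interval, for the 38 members with at least 15 UMIs (y axis), coloured by role. The solid line marks 0 and the dotted line 1. Pld3 leads the hydrolases, Atp6v0e is among the members whose interval spans 0, and the wide bar of Atp6v0d2 rests on 12 UMIs in macrophage-like cells.

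Each member's level was also ranked across the 7 classes. Macrophage-like cells held the highest level of 32 of the 38 members (84.2%), against 14.9% of all genes. For 20 of these 32 the interval of the ratio to the next class lay above 0, and for the other 12 the top 2 classes did not differ beyond counting error. Ranked by single clusters of at least 50 cells, *Cd63* and *Gaa*, both among the 20, were highest in the DC-like cluster led by *Ccl22* and *Ccr7*. Monocyte-like cells came second for 21 of the 38, a rank that was not counted over all genes. With median-of-ratios scaling 21 members, and 10.8% of all genes, had their highest level in macrophage-like cells. The 6 exceptions were *Lyz2*, *Pld4* and *Atp6v1a*, highest in monocyte-like cells (9.13% of all genes), *Fuca1* and *Atp6v0e*, highest in DC-like cells (7.27% of all genes), and *Mcoln1*, highest in B lineage-like cells (7.81% of all genes) on 7 UMIs.

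**Figure D3:**
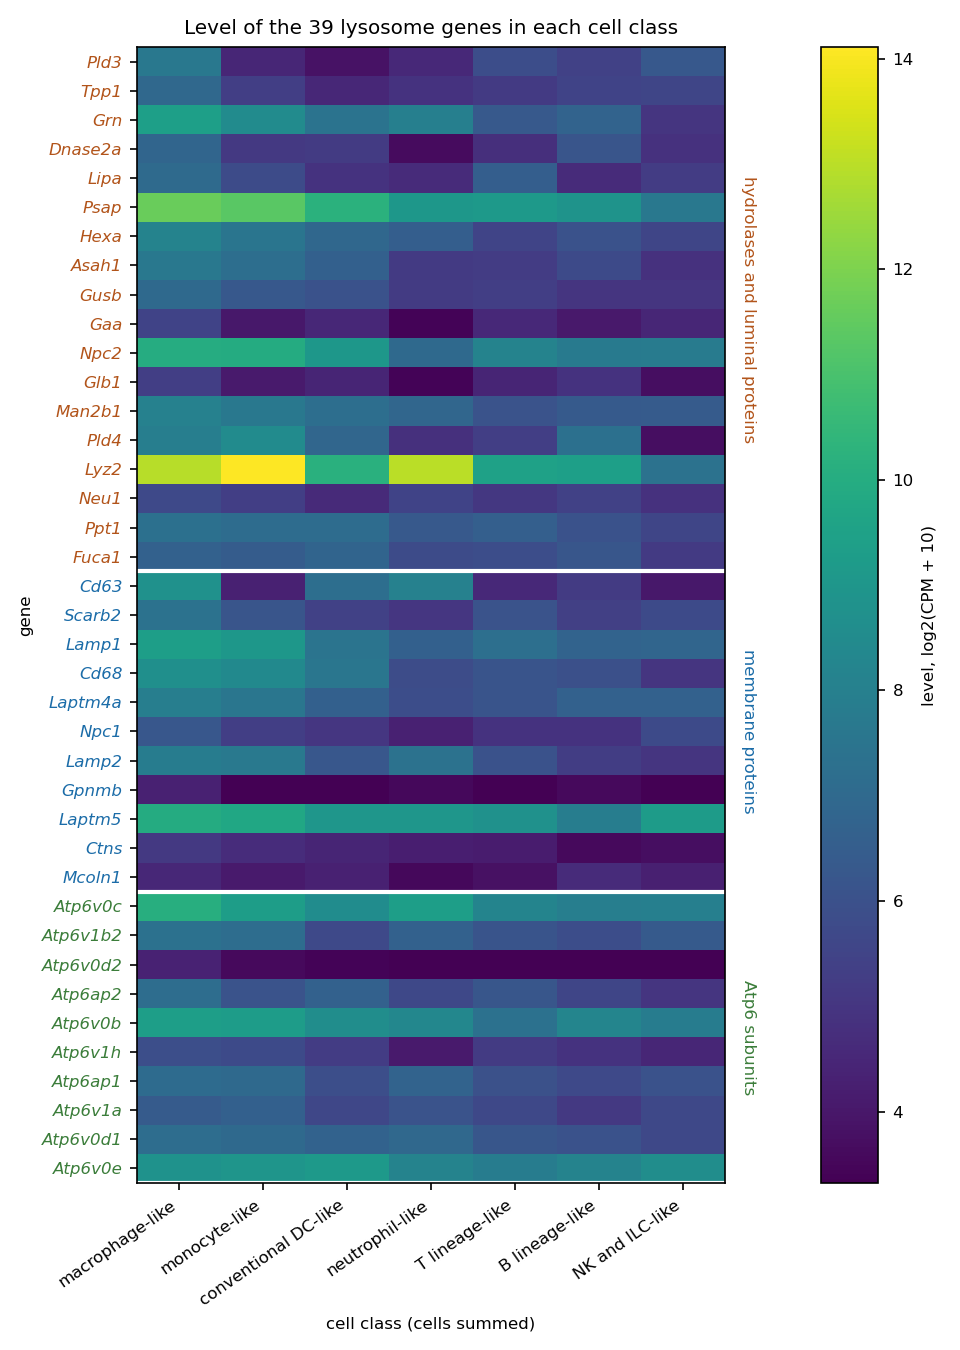
Colour gives the level, as log2(CPM + 10), of each of the 39 genes (rows, grouped by role and ordered by their ratio in macrophage-like cells) in each of the 7 cell classes (columns, cells summed). The macrophage-like column is brightest for 32 of 38 rows (21 with median-of-ratios scaling), while Lyz2 reaches 17682 CPM in monocyte-like cells and Cd63 is at 10.1 CPM there.

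Because several lysosome genes carry a palindromic E-box, CACGTG, that basic helix-loop-helix factors such as Tfeb are known to bind, the promoters of the members were read from RefSeq on GRCm38.p6, which is mm10. The windows run from 250 bases before to 50 after the start, and 34 of the 39 members matched. CACGTG reads the same on both strands, as does TCACGTGA, which contains it. CACGTG was in 8 of 34 windows (23.5%), against 12.2% of the 8703 matched genes with at least 15 UMIs and 8.09% of all 27025 genes in the table. TCACGTGA was in 4 of 34 (11.8%), against 2.40% and 1.12%. Of the Atp6 subunits 4 of 7 held CACGTG and 3 held the longer form, of the membrane proteins 2 of 10 and of the hydrolases 2 of 17 held CACGTG. Shown are *Lamp1*, which held 4 copies, and the 4 members with TCACGTGA, with the motif in capitals.
Lamp1 (chr8:13159080-13159160, plus strand): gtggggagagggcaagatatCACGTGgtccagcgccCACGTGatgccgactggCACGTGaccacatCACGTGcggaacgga
Mcoln1 (chr8:3500462-3500491, plus strand): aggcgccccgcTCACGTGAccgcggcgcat
Atp6v0d1 (chr8:105566050-105566079, minus strand): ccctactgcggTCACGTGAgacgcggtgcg
Atp6v1a (chr16:44139364-44139411, minus strand): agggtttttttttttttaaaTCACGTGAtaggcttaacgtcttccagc
Atp6v0e (chr17:26676387-26676416, plus strand): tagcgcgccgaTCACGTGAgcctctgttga
The copies of *Lamp1* began 61, 45, 28 and 15 bases before its RefSeq start. The other 3 members with CACGTG were *Atp6v0b*, *Glb1* and *Gaa*. Among the 8 members with the motif 3 passed a log2 ratio of 1 in macrophage-like cells (median 0.66). Among the 25 measured members without it 16 did (median 1.22). Of the 8 members 4 were Atp6 subunits, the group with the lowest median ratio (0.80), so motif and role cannot be told apart here. The same split was not taken for all genes.

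The 18 hydrolases and luminal proteins took 14853 CPM in macrophage-like cells and 22915 CPM in monocyte-like cells, or 6837 and 5233 CPM without *Lyz2*. Against all other named classes the sum was higher by 1.03 on the log2 scale (1.01 to 1.06), and by 1.45 without *Lyz2*. In this group 13 of 18 members passed 1, and the median was 1.20. *Pld3*, an exonuclease of single-stranded nucleic acids in the endolysosome (chr7:27532000-27553218, minus strand), had the largest ratio, 2.86. It stood at 190 CPM in macrophage-like cells, 69.1 CPM in NK and ILC-like and 48.2 CPM in T lineage-like cells, and 4.25 CPM in DC-like cells. At 2000 UMIs per cell 20.8% of macrophage-like cells had a UMI of it, against 7.08% of T lineage-like and 0.549% of DC-like cells. *Pld3* thus separated macrophage-like cells from the other myeloid classes more than from lymphoid ones. Its macrophage-like level joins 104 and 549 CPM in the clusters of 306 and 74 cells described further on.

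*Tpp1*, a tripeptidyl peptidase, stood at 114 CPM in macrophage-like cells and at 12.7 to 37.7 CPM elsewhere, and was 5.42-fold higher than in the others summed (log2 interval 2.08 to 2.80). *Dnase2a*, which digests the DNA of engulfed cells, stood at 104 CPM in macrophage-like cells, 61.6 CPM in B lineage-like cells and 2.62 CPM, or 3 UMIs, in neutrophil-like cells (ratio 1.78 against the others). *Grn*, the progranulin gene, stood at 664 CPM against 364 CPM in the next class, monocyte-like cells (ratio 1.79). *Psap*, the precursor of the saposins that help degrade sphingolipids, was at 3214 CPM in macrophage-like and 2606 CPM in monocyte-like cells, and had a UMI in 97.3% and 97.4% of their thinned cells. In lymphoid classes *Psap* stood between 188 and 563 CPM. *Lipa*, the acid lipase, was at 121 CPM in macrophage-like cells and 83.7 CPM in T lineage-like cells, above the 45.3 CPM of monocyte-like cells.

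Another 6 enzymes also passed 1. These were *Hexa*, *Asah1*, *Gusb*, *Gaa*, *Glb1* and *Man2b1*, which cleave gangliosides, ceramide, glucuronides, glycogen, galactosides and mannosides, and their log2 ratios ran from 1.01 to 1.39. *Npc2*, the soluble cholesterol carrier, also passed (1.15), but its 1005 CPM in macrophage-like cells and 978 CPM in monocyte-like cells did not differ beyond counting error. *Gaa* and *Glb1* were rare, with 39 and 34 UMIs in macrophage-like cells. The smallest ratios of the group were those of *Ppt1*, a thioesterase (0.46), and *Fuca1*, a fucosidase (0.24), which was at 90.8 CPM in macrophage-like and 102 CPM in DC-like cells with intervals that overlapped. *Neu1*, a sialidase, lay at 0.67 with 48 UMIs in macrophage-like cells.

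*Lyz2* (chr10:117277331-117282321, minus strand) had its highest level outside macrophage-like cells. It stood at 17682 CPM in monocyte-like cells, 8052 CPM in neutrophil-like cells and 8016 CPM in macrophage-like cells, where the latter pair did not differ beyond counting error. That tie depended on the scaling. With ribosomal protein and mitochondrial genes left out of the totals, *Lyz2* was higher in macrophage-like than in neutrophil-like cells. Median-of-ratios scaling moved this comparison the other way, taking the hydrolase sum with *Lyz2* from 0.66 to -0.28 on the log2 scale. DC-like cells had 1150 CPM and the lymphoid classes 157 to 714 CPM. At 2000 UMIs all thinned monocyte-like and neutrophil-like cells and 93.8% of macrophage-like cells had a *Lyz2* UMI. The share was still 30.1% in T lineage-like cells, a class not known to make lysozyme, so a single UMI of *Lyz2* did not mark a myeloid cell in this library. Unthinned median depths were 1058 UMIs in T lineage-like and 1990 in monocyte-like cells.

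The 11 membrane proteins took 3191 CPM in macrophage-like cells, 2198 CPM in monocyte-like cells and 596 to 1209 CPM elsewhere. Against all other named classes the sum was higher by 1.35 on the log2 scale (1.30 to 1.41), with 7 of 10 measured members past 1 and a median of 1.25. *Cd63*, a tetraspanin of late endosomes and secretory granules (chr10:128900989-128912822, plus strand), had the largest ratio, 1.87. It stood at 428 CPM in macrophage-like cells and 10.1 CPM in monocyte-like cells, on 10 UMIs, and no thinned monocyte-like cell had a UMI at 2000 UMIs, a depth at which a cell with few transcripts can show none. Neutrophil-like cells had 254 CPM and DC-like cells 138 CPM of *Cd63*. No other member with over 100 CPM in macrophage-like cells was as far below that level in monocyte-like cells.

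*Scarb2*, the receptor that brings glucocerebrosidase to lysosomes, stood at 155 CPM in macrophage-like cells and at 22.7 to 61.4 CPM elsewhere (ratio 1.76). *Lamp1*, one of the main structural proteins of the membrane, stood at 654 CPM in macrophage-like and 518 CPM in monocyte-like cells, and between 88.3 and 166 CPM in the other classes (ratio 1.69). *Cd68*, a scavenger-type glycoprotein used as a macrophage marker, was close in both classes at 409 and 337 CPM, and stood at 178 CPM in DC-like cells (ratio 1.40). *Laptm4a* and *Npc1*, the transporter that takes cholesterol from Npc2, passed 1 as well (1.28 and 1.22), as did *Lamp2* (1.11), which at 220 and 197 CPM did not differ beyond counting error from monocyte-like cells. *Laptm5*, at 974 CPM, was also high in NK and ILC-like cells at 603 CPM and had a ratio of 0.87. The cystine transporter *Ctns* (0.78) and the calcium channel *Mcoln1* (0.39) had the smallest ratios, on 28 and 15 UMIs in macrophage-like cells.

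The 10 Atp6 genes differed least between classes. They took 2848 CPM in macrophage-like cells, 2297 CPM in monocyte-like cells, 1658 and 1638 CPM in DC-like and neutrophil-like cells and 963 to 1087 CPM in lymphoid classes. The sum was higher in macrophage-like cells by 0.84 on the log2 scale (0.78 to 0.89), with 2 of 10 members past 1 and a median of 0.80. *Atp6v0c*, which forms the proton-carrying ring, stood at 1078 CPM in macrophage-like cells, 643 CPM in neutrophil-like and 627 CPM in monocyte-like cells (ratio 1.30), and was 37.9% of the Atp6 sum in macrophage-like cells. *Atp6v1b2*, a catalytic-sector subunit, passed with 1.07, at 154 CPM beside 133 CPM in monocyte-like cells, a pair that did not differ beyond counting error. The accessory gene *Atp6ap2* was at 135 CPM, above the 92.0 CPM of DC-like and the 58.3 CPM of monocyte-like cells (ratio 0.90). *Atp6v0b*, *Atp6v1h* and *Atp6ap1* had ratios of 0.81, 0.79 and 0.77, with monocyte-like cells second and within counting error for each.

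The smallest Atp6 ratios were those of *Atp6v0e* (0.04), *Atp6v0d1* (0.49) and *Atp6v1a* (0.51). *Atp6v0e*, a small membrane-sector subunit, stood at 440 CPM in macrophage-like cells, 490 CPM in monocyte-like and 554 CPM in DC-like cells, and 380 CPM in NK and ILC-like cells. *Atp6v1a*, the ATP-splitting subunit, was at 74.9 CPM in macrophage-like and 89.5 CPM in monocyte-like cells, within counting error. *Atp6v0d2*, the form of subunit d known from osteoclasts and macrophages, was found on 17 UMIs in 17 cells of the kept library, 12 of them macrophage-like. With 10 CPM added its ratio was 0.96. It was not seen in neutrophil-like or lymphoid cells, where 3 UMIs would be between 2.62 and 9.42 CPM.

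Within pairs of related genes the balance differed between classes in some cases and not in others. *Pld3* and *Pld4*, the 2 endolysosomal exonucleases of the phospholipase D family, split most: *Pld3* was 44.9% of their UMIs in macrophage-like cells (40.4% to 49.5%), 3.26% in monocyte-like cells (1.70% to 5.63%) and 3.82% in DC-like cells. It was 18.3% in B lineage-like, 61.3% in T lineage-like, 43.2% in neutrophil-like (27.1% to 60.5%) and 95.7% in NK and ILC-like cells, the last on 22 *Pld3* UMIs and 1 *Pld4* UMI. The macrophage-like value joins 28.8% and 80.1% in the clusters of 306 and 74 cells described further on. *Lamp1* was 74.9% of *Lamp1* and *Lamp2* UMIs in macrophage-like cells and 71.5% to 82.5% in the other classes except neutrophil-like cells, where it was 35.6% (101 against 183 UMIs). The DC-like 71.5% joins 64.4% (59.9% to 68.7%) and 91.0% (85.7% to 94.7%) in the clusters of 702 and 115 cells described further on. *Atp6v0d1* was 92.7% of the UMIs of both subunit d genes in macrophage-like cells (87.6% to 96.2%) and 98.4% in monocyte-like cells (94.2% to 99.8%). *Laptm4a* was 19.6% of its pair with *Laptm5* in macrophage-like cells, 8.96% in neutrophil-like and 28.8% in B lineage-like cells. *Npc1* was 6.10% of its pair with *Npc2* (4.82% to 7.59%), and 2.99% in monocyte-like cells (2.03% to 4.25%).

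Macrophage-like cells were then set against monocyte-like cells alone, the class nearest by level. Of 37 measured members 9 were higher in macrophage-like cells by a log2 ratio of 1 or more, against 7.08% of all genes, and 1 was lower, against 1.89%. *Cd63* was 42.5-fold higher (428 against 10.1 CPM; log2 interval 4.52 to 6.48) and *Pld3* 15.8-fold higher (190 against 12.1 CPM; 3.15 to 4.95). The others were *Dnase2a*, *Gaa*, *Glb1*, *Tpp1*, *Lipa*, *Scarb2* and *Atp6ap2*, between 2.31-fold and 5.70-fold. *Lyz2* was the lower one, at 0.453 of the monocyte-like level, and *Pld4* was at 0.652 (log2 interval -0.85 to -0.38). The remaining 26 lay between -0.23 and 0.91. All 10 measured membrane proteins lay above 0, as did 59.3% of all genes. Some of their intervals spanned 0, such as those of *Lamp2* (-0.12 to 0.43) and *Ctns* (-0.32 to 1.60). Of these 37 members, *Npc2*, *Atp6v0b* and *Atp6ap1* changed sign with median-of-ratios factors from the 2 classes. These factors left 8 members higher by 1 or more, beside 504 of all 8092 genes.

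Against DC-like cells 21 of 37 members were higher by 1 or more, against 8.14% of all genes, and none was lower, against 1.68%. *Pld3* led (190 against 4.25 CPM), followed by *Lyz2* (8016 against 1150 CPM), *Tpp1* and *Lipa*. *Neu1* and *Pld4* were among the 21, with levels 2.99-fold and 2.19-fold those of DC-like cells. *Atp6v0e* was at 0.793 of the DC-like level (log2 interval -0.48 to -0.19). With median-of-ratios factors 16 of the 21 stayed past 1, since the median of all genes fell by 0.14. Of all 9426 genes 586 were then higher by 1 or more.

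Against neutrophil-like cells 22 of 37 members were higher by 1 or more, but so were 32.5% of all genes, and 6.98% were lower. The 10 neutrophil markers alone took 446196 CPM of neutrophil-like cells, which lowers every other gene's CPM there. The largest ratios were those of *Dnase2a* (118 UMIs against 3, log2 interval 3.73 to 7.61), *Pld4* (234 against 18.4 CPM), *Pld3* and *Npc2* (1005 against 117 CPM). With median-of-ratios factors from the 2 classes the median of all genes fell by 0.61. In that scaling 17 members stayed past 1, beside 1071 of all 8079 genes. The sum of hydrolases without *Lyz2* then was still higher by 1.41 on the log2 scale and the membrane sum by 0.54. The Atp6 sum went from 0.80 to -0.15, the sum of all 39 genes from 0.78 to -0.17 and the hydrolase sum with *Lyz2* from 0.66 to -0.28. In all 9 members changed sign, 6 of them Atp6 genes and the others *Lamp2*, *Cd63* and *Neu1*. Whether Atp6 levels were higher in macrophage-like than in neutrophil-like cells thus depended on the scaling.

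The macrophage-like class held 2 clusters. One, of 306 cells, was led by *Ccl12*, *Pf4* and *C1qa*, and the other, of 74 cells, by *Gdf15*, *Vcam1* and *Spic*, with the iron exporter *Slc40a1* among its leading genes. In the 74 cells 5 of 37 members were higher by 1 or more, against 10.3% of all genes, and 1 was lower, against 5.72%. These counts, of 37, were near the shares among all genes. *Pld3* was at 549 CPM against 104 CPM, a 5.28-fold difference on 121 against 95 UMIs, and at 2000 UMIs 60.4% of 48 cells had a UMI of it against 11.8% of 212. *Lipa* was at 250 against 89.7 CPM, *Tpp1* at 218 against 88.6 CPM, *Cd68* at 699 against 339 CPM and *Ctns* at 54.5 against 17.5 CPM, the last on 12 and 16 UMIs. *Lyz2* was the lower one at 3758 against 9043 CPM. *Psap* stood at 2306 against 3433 CPM and *Pld4* at 136 against 257 CPM, both with intervals below 0. *Pld3* and *Pld4* thus lay on opposite sides inside the class.

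The sum of all 39 genes was lower in the *Spic* cluster by 0.33 on the log2 scale (-0.38 to -0.28). Without *Lyz2* it was higher by 0.09 (0.03 to 0.15), though it lay at -0.06 with median-of-ratios factors. The membrane sum was higher by 0.34 (0.23 to 0.45). Neutrophil markers summed to 15431 CPM in the *Spic* cluster and 479 CPM in the other, and 1 cell held 84.9% of those UMIs in the *Spic* cluster. Without the 3 and 2 cells in which the markers passed 1% of UMIs they stood at 379 and 383 CPM. The same 6 genes then passed 1 in the same directions, and the sum without *Lyz2* was higher by 0.12. The median-of-ratios factors left 4 members higher and 2 lower by 1 or more, beside 556 and 488 of all 6717 genes.

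**Figure D4:**
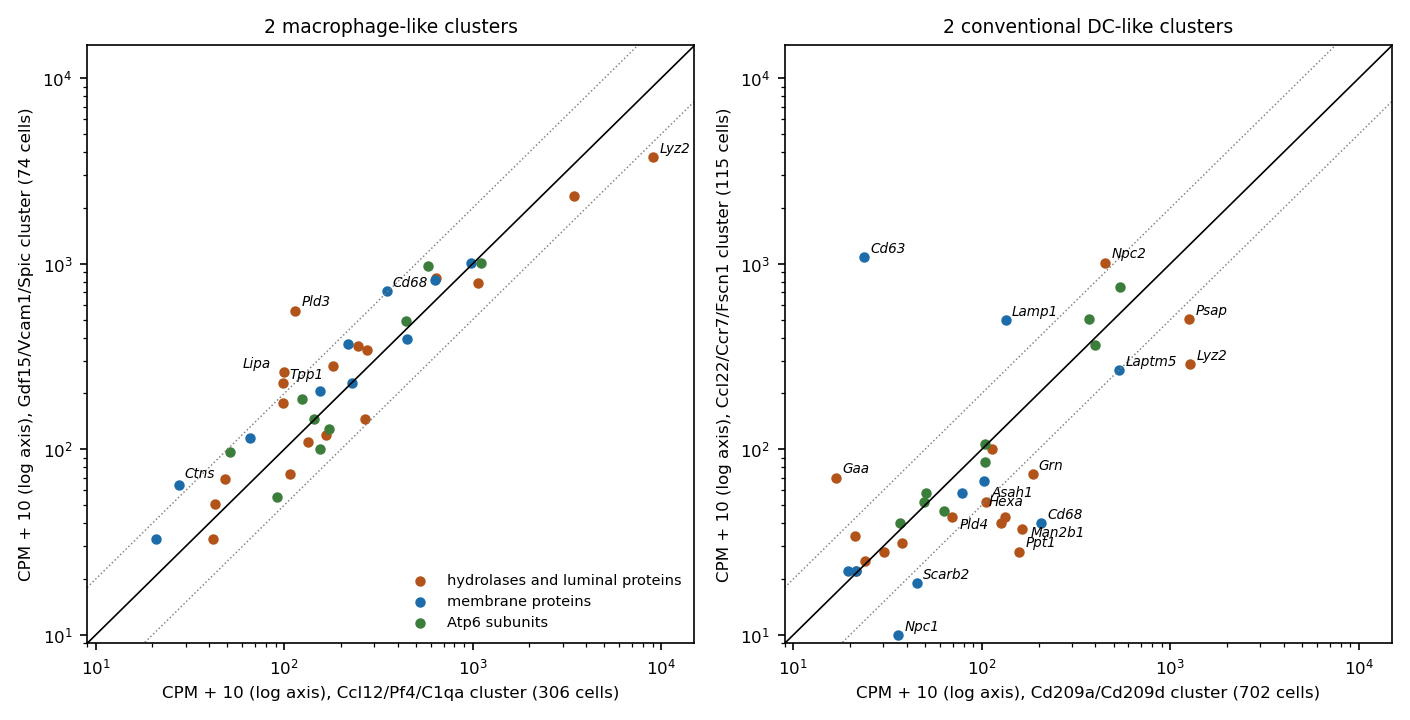
Each point is a member, placed by its CPM plus 10 in the larger cluster (x axis, log scale) and in the smaller one (y axis, log scale), for the macrophage-like clusters (left) and the conventional DC-like clusters (right). The solid line marks equal levels and the dotted lines a log2 difference of 1; named are the members beyond them, led by Pld3 on the left (549 against 104 CPM) and Cd63 on the right (1079 against 13.6 CPM).

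DC-like cells also held 2 clusters, and the members differed more between these than between the macrophage-like ones. One, of 702 cells, was led by *Cd209d*, *Cd209e* and *Cd209a*, and the other, of 115 cells, by *Ccl22*, *Ccr7* and *Fscn1*, genes known from dendritic cells that mature and migrate. In the *Ccr7* cluster 4 of 36 measured members were higher by 1 or more, against 7.19% of all genes, and 12 were lower, against 13.6%. Of these counts, the 4 of 36 was near its share among all genes and the 12 of 36 was above its share. *Cd63* was at 1079 CPM on 357 UMIs against 13.6 CPM on 34 UMIs, a 79.2-fold difference (log2 interval 5.80 to 6.86), and 83.0% of 88 thinned cells had a UMI of it against 2.03% of 640. Its level there was above that of macrophage-like cells, so the 138 CPM of the whole class described neither cluster. *Gaa* (60.5 against 6.81 CPM), *Lamp1* (487 against 124 CPM) and *Npc2* (1004 against 442 CPM) were higher too.

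The 12 lower members included *Ppt1* (18.1 against 147 CPM), *Cd68* (30.2 against 197 CPM), *Man2b1* (27.2 against 154 CPM), *Lyz2*, *Pld4*, *Hexa*, *Grn*, *Psap* and *Scarb2*, the last on 3 against 88 UMIs (log2 interval -4.26 to -0.37). *Npc1* had no UMI in the *Ccr7* cluster against 65 in the other, at least 2.87-fold lower with 3 UMIs as the floor over the cluster. *Laptm5* (-1.01) and *Asah1* lay at the threshold. Of the hydrolases 8 of 17 were lower and 2 higher (median -0.68), and of the membrane proteins 4 of 10 were lower and 2 higher (median -0.52). The Atp6 genes had a median of 0.09. Over all 36 measured members the median was -0.22, close to the -0.24 of all genes, of which 63.1% lay below 0. The hydrolase sum was at 2270 against 4032 CPM, the membrane sum at 1992 against 1106 CPM, and the Atp6 sum at 1920 against 1623 CPM. Without *Cd63* the membrane sum was at 913 against 1092 CPM (log2 difference -0.26, interval -0.43 to -0.09), a difference of 0.01 with median-of-ratios factors, so the higher membrane sum of the *Ccr7* cluster rested on *Cd63*. Neutrophil markers summed to 7936 and 423 CPM, 96.7% of the former in 1 cell. Without that cell and 3 of the other cluster they stood at 270 and 289 CPM, the same 4 members were higher, and 10 were lower, *Laptm5* and *Asah1* having dropped out.

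Neutrophil-like cells held a cluster of 320 cells led by *Ltf*, *Ngp* and *Lcn2*, genes of secondary granules, and one of 166 cells led by *Cstdc4*, *Retnlg* and *Stfa2l1*. In the latter 3 of 30 measured members were higher by 1 or more, against 13.6% of all genes, and 1 was lower, against 11.4%. The higher ones were *Cd68* (124 against 30.8 CPM), *Scarb2* (13 UMIs in each) and *Ppt1* (148 against 53.1 CPM). *Lyz2* was lower at 4132 against 8894 CPM. These counts, of 30, are below the shares among all genes.

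**Figure D5:**
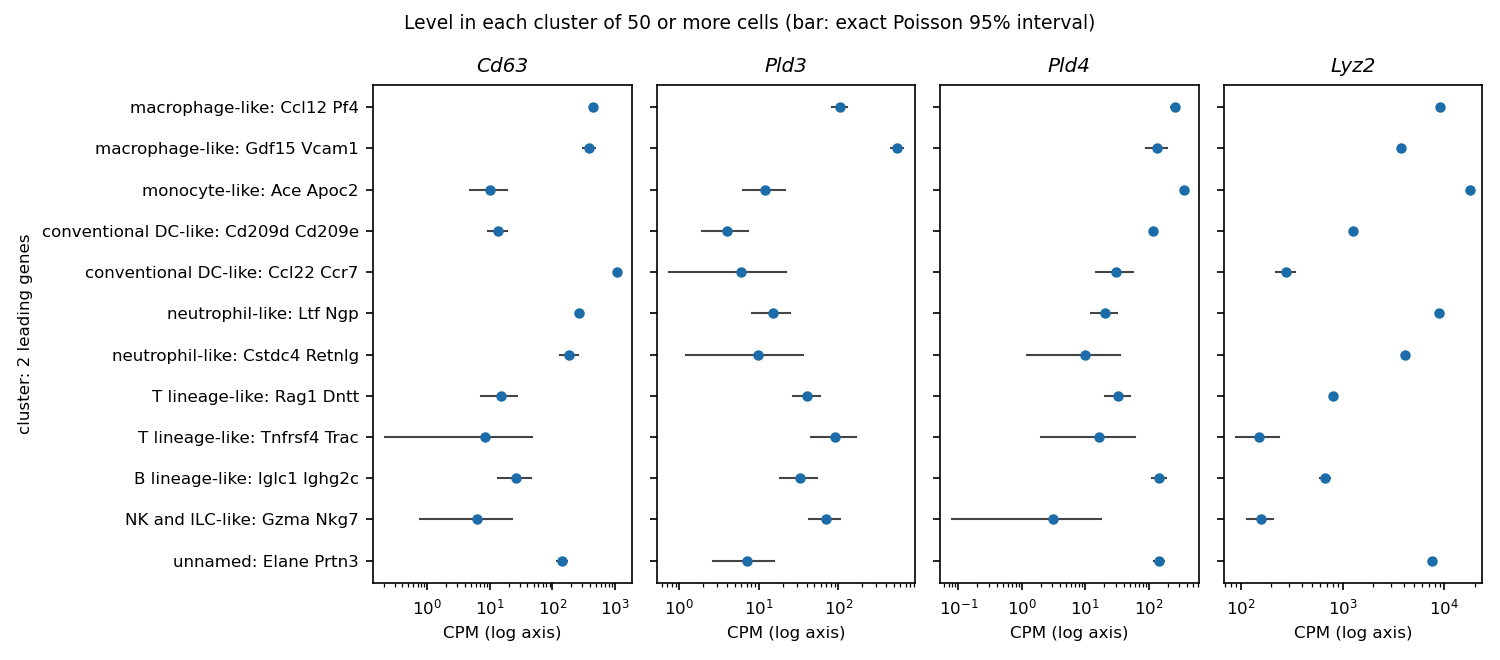
Level of Cd63, Pld3, Pld4 and Lyz2 in CPM (x axes, log scale) in each cluster of 50 or more cells (y axis, with 2 leading genes), with exact Poisson 95% intervals. Cd63 peaks in the Ccl22 and Ccr7 cluster at 1079 CPM, Pld3 in the Gdf15 and Vcam1 cluster at 549 CPM, and Pld4 and Lyz2 in monocyte-like cells at 358 and 17682 CPM.

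Correlations of log2 levels among the members were taken over the 12 clusters of at least 50 cells, as a description, and were not taken for other genes. The median correlation of *Psap* with the other 37 was 0.69, the highest, and its closest partner was *Cd68* (Pearson r = 0.95 over 12 clusters). *Asah1* and *Cd68* had r = 0.96 and *Hexa* and *Grn* 0.95. The lowest medians were those of *Mcoln1* (0.21), *Glb1* (0.25), *Atp6v0e* (0.32) and *Cd63* (0.32). All clusters share 1 library and differ in depth.

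Other lysosome genes placed the 39 in context, again for macrophage-like cells against the other named classes. Of the 11 measured cathepsins and legumain, the proteases of the lysosome, 9 were higher by 1 or more and 1 was lower, with a median of 1.64, against 4.94% and 2.74% of all genes. *Lgmn* stood at 475 against 44.3 CPM and *Ctsb* at 1516 against 237 CPM, while *Ctsw*, known from NK cells and cytotoxic T cells, was the lower one at 10.6 against 48.6 CPM, and *Ctsh* had the next smallest ratio, 0.64. Of 25 other hydrolases and activators 8 were higher, with a median of 0.60, led by *Acp5* (265 against 31.9 CPM) and *Acp2* (86.4 against 10.4 CPM), and none was lower. *Galns* (-0.46) and *Arsb* (-0.40) had the smallest ratios. Of 8 other measured Atp6 subunits 2 were higher, *Atp6v0a1* (1.45) and *Tcirg1* (1.36), and the median was 0.56, with *Atp6v1g1* (0.36) and *Atp6v1f* (0.27) lowest. Of 17 other membrane proteins and transporters 5 were higher, with a median of 0.51. *Slc36a1* (1.60) and *Slc29a3* (1.52) led them, and *Abca2* (0.07) and *Sidt2* (-0.07) were lowest.

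Genes that regulate or deliver lysosome proteins were read in the same way, against the same 4.94% of all genes. Of the 4 MiT/TFE transcription factors, *Tfec* (38.8 against 2.91 CPM) and *Mitf* (15.9 against 2.45 CPM, 18 UMIs) were higher by 1 or more. *Tfe3* (0.66) and *Tfeb* (0.38) did not pass. Of 9 genes of enzyme sorting 1 was higher, *Gga2* (1.33), with *M6pr*, a mannose 6-phosphate receptor, at 0.79, and *Gga3* and *Igf2r* lowest at -0.28 and -0.43. At that share a count of 0 or 1 in 8 or 9 genes is near the background. None of 8 measured Ragulator and Rag genes, which tether mTORC1 to the lysosome, passed 1 (median 0.19, from *Rragc* at 0.94 and *Lamtor1* at 0.27 to *Lamtor5* at -0.04 and *Rraga* at -0.12). None of 8 HOPS and Rab7 genes of fusion with the lysosome did either (median 0.37, from *Vps41* at 0.84 and *Vps33a* at 0.70 to *Vps11* at 0.12 and *Vps16* at -0.06).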

How the data were processed

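Per the file headers and the submitters' processing notes, the authors made the deposited UMI counts per gene and barcode with Cell Ranger 6.0.0 on mm10. Annotation and intron counting are not given in the sources used here. Of 3214 barcodes, 3188 passed minimums of 500 UMIs and 300 genes and a mitochondrial maximum of 10%. Scrublet, run in scanpy 1.11.5 (python 3.11.15), called 3 of these doublets (0.0941%), which were removed. Leiden clustering at resolution 0.5 used 2000 variable genes, 30 components and 15 neighbours, with the members and the other lysosome genes left out. Clusters were named from marker lists, and a class needed 50 cells. The unnamed cluster of 131 cells and a mast cell and basophil-like cluster of 11 were not compared.

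Counts were summed per class or cluster and divided by its total. Levels have exact Poisson and ratios exact binomial intervals at 95%, with UMIs treated as independent. A gene needed 15 UMIs in the cells compared, and a log2 ratio, with 10 CPM added, past 1 in either direction was counted. Scripts were tested on simulated data. Promoters came from RefSeq, and gene positions from GENCODE for mm10.

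The 39 members, the other lists and the tests were chosen with earlier results of these data known. Named were, per group, the 4 largest and 2 smallest ratios, members highest in another class, and fixed pairs, of which 1 is not reported here. For other lists these were the 2 largest and the smallest ratio. Further genes, those named in comparisons of single classes or clusters included, were chosen after their values were seen. So were the minimum of 50 cells and the 1% limit for neutrophil markers.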

Additional observations from a re-analysis of the deposited data

How the results depend on the processing

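The ratios of sums for macrophage-like cells against the other named classes kept their direction under every alternative run. Summed levels and counts of members have no direction that could reverse. The summed level of all 39 genes, 20892 CPM, was 20072 CPM with no cell filter, 19672 CPM with a stricter one, 20372 CPM at clustering resolution 1, 22931 CPM with the highest doublet scores removed, 18266 CPM with median-of-ratios scaling, 26194 CPM with ribosomal protein and mitochondrial genes out of the totals, 12876 CPM without *Lyz2* and 22510 CPM as the mean of per-cell shares. The hydrolase ratio, 1.03 on the log2 scale, was in the same order 0.93, 0.89, 0.98, 1.21, 0.81, 0.98, 1.45 and 1.13, and 1.11 with the other classes weighted equally. The membrane ratio, 1.35, was 1.22 with the stricter filter, 1.47 with doublet scores removed, 1.13 with median-of-ratios scaling and 1.46 with equal weights. The Atp6 ratio, 0.84, was 0.92, 0.61 and 0.98 under the last 3 of these. The 22 members counted as higher were 14 with 50 CPM added, where the share of all genes was not taken. The 32 highest in macrophage-like cells were 21 with median-of-ratios scaling. The sum of the *Spic* cluster against the other macrophage-like cluster, -0.33, was -0.28 with no filter, -0.27 with the stricter filter, -0.49 with median-of-ratios scaling and -0.43 without ribosomal protein and mitochondrial genes. It reversed to 0.087 without *Lyz2*. The median share of macrophage-like cells with a UMI of a member, 25.8% at 2000 UMIs, was 15.6% at 1000 UMIs. Equal weights, the membrane sum without *Cd63* and leaving out cells that carried neutrophil markers were chosen after seeing the data, and the last moved none of these values beyond its interval. Beyond what each alternative changes by construction, the cause of these shifts was not tested. No paired analysis was possible because the report rests on 1 library and no test. Members with few UMIs, such as *Gpnmb*, *Atp6v0d2* and *Mcoln1*, are limited by depth.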

Other observations

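Clusters outside the 7 classes also held members. In the unnamed cluster of 131 cells led by *Elane* and *Prtn3*, genes of early neutrophil granules, the 39 genes took 13230 CPM, and 5679 CPM without *Lyz2*. *Cd63* stood at 145 CPM there, with all of its 121 UMIs in 18 cells. In the 11 mast cell and basophil-like cells, led by *Ifitm1*, *Ccl3* and *Ccl4*, *Cd63* had 16 UMIs in 8 cells, or 1412 CPM (807 to 2293), a level whose interval spans that of the *Ccr7* cluster. These cells had no UMI of *Lyz2*, *Psap* or *Lamp1*.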
